A study of Mus musculus with 59 samples.

Results

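Small nucleolar RNA (snoRNA) host genes are transcribed into a precursor whose introns carry snoRNAs, and the transcripts of 10 such mouse genes were followed here while transcription was blocked: Gas5, Snhg1, Snhg3, Snhg5, Snhg6, Snhg7, Snhg8, Snhg9, Snhg11 and Snhg12. They were taken by gene symbol from a table of 23974 genes, where each has 1 row. A mean of at least 10 normalised reads over all libraries was required for testing, and 5 of the 10 reached it (Gas5, Snhg8, Snhg6, Snhg5 and Snhg11), among 6952 genes in all. A normalised read count is a gene's reads divided by the authors' scaling factor for that library.

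The cells were mouse embryonic stem cells (ESCs) derived from blastocysts of the BDF1 strain and grown with LIF, CHIR99021 and PD0325901. Control (wild type) and Zcchc8 KO cells received Actinomycin D, a drug that blocks transcription, at 5 µg/ml for 0, 4 or 8 h, with 2 libraries of rRNA-depleted total RNA in each of the 6 groups. These 12 libraries are part of a series of 59 samples, and the other 47 were not used here. The labels say that ERCC spike-in RNA was added, while 0 spike-in rows were found in the table. The sources used here do not give how the KO was made, how many KO lines it comprised, or whether the 2 libraries of a group came from separate cultures. The p-values therefore measure no more than the spread of these libraries, possibly a technical one.

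After splicing, the introns of a host transcript are debranched and trimmed to release the snoRNAs, which guide 2′-O-methylation (C/D box) or pseudouridylation (H/ACA box) of ribosomal and spliceosomal RNA. The spliced exons that remain are often poor in coding potential, and Gas5 is the textbook example of a spliced host RNA removed by nonsense-mediated decay when it is translated. Many hosts begin with a terminal oligopyrimidine tract, the start of ribosomal protein mRNAs. Zcchc8 is a scaffold subunit of NEXT, the nuclear exosome targeting complex. NEXT passes nuclear noncoding RNA to the exosome, an RNase complex that also trims snoRNA precursors.

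The libraries held 465324 to 1364520 reads, and 1 read was worth 0.452 to 3.23 normalised reads. Zcchc8 was at 59.3 and 77.5 in the control libraries at 0 h and at 25.3 and 5.29 in the KO libraries at 0 h, so it was lower in both KO libraries. At 4 h it was at 32.7 and 24.7 in control and 21.3 and 13.6 in KO, and at 8 h at 7.57 and 11.3 in control and 9.56 and 3.78 in KO. The values of the genotypes thus overlapped at 8 h. Of 15 stem cell markers 12 were tested, with Pou5f1 at a mean of 227 and Sox2 at 333, while Nanog was at 0.588 and Esrrb at 0. Nanog has 4 transcript rows and Esrrb 2, as has Pou5f1. No source used here says how reads shared between transcripts were counted, so these low values are not taken as absence. Of 12 fibroblast markers 10 were tested, with Postn (3 transcript rows) and Pdgfrb (2) at 0, to which the same limit applies. The fibroblast markers summed to 5314 to 8770 in control and 12704 to 16650 in KO at 0 h, 7750 to 9316 and 15832 to 17144 at 4 h, and 6979 to 8611 and 9596 to 12479 at 8 h. As a share of each library's total they were at 0.583% to 0.646% in control and 0.885% to 1.12% in KO at 0 h. The shares were 1.17% to 1.24% and 1.90% to 2.07% at 4 h. At 8 h they overlapped, at 1.936% to 1.937% in control and 1.27% to 2.05% in KO. Col1a1 had the highest mean among them, 6248. At 0 h 4 of the 10 were called higher in KO, also after TMM scaling, against 4.3% of all tested genes called in either direction on the authors' scale. At 4 h and 8 h 0 were called on that scale. The stem cell markers summed to 3144 to 5375 in control and 4135 to 4662 in KO at 0 h. Their shares at 0 h did not overlap, at 0.358% to 0.382% in control and 0.288% to 0.314% in KO. The part of these markers in the host values was not tested, and in bulk RNA fewer cells of a type and less RNA per cell cannot be told apart. The median gene of control 0 h replicate 2 lay 0.81 above that of replicate 1 on the log2 scale, the widest replicate gap of the 6 groups.

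Snhg5 carries Snord50a and Snord50b, a pair of C/D box snoRNAs, in its introns. Both are shown with Snord47 from Gas5, Snord87 from Snhg6 and Snora24 from Snhg8, because these small RNAs are what the measured hosts are processed for. Sequences and coordinates come from the GENCODE M21 annotation of GRCm38, a build other than the mm9 of the deposited counts. In the C/D box RNAs the capitals mark the C box (TGATGA) and the D box (CTGA), which bind the fibrillarin complex, and in Snora24 they mark the ACA element near its 3′ end.
Snord50a (chr9:88521529-88521600, minus strand): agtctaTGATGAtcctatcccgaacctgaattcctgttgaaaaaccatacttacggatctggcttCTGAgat
Snord50b (chr9:88521797-88521868, minus strand): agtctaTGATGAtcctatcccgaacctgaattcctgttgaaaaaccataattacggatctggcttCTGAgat
Snord87 (chr1:9942463-9942549, minus strand): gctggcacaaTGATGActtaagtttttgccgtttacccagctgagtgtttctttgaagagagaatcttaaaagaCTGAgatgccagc
Snord47 (chr1:161038082-161038158, plus strand): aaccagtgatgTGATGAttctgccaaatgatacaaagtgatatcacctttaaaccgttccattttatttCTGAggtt
Snora24 (chr3:123507937-123508066, minus strand): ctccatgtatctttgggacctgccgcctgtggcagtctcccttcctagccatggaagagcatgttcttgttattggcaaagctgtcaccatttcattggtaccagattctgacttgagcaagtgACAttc
The Snord50 copies have 72 bases each and differ at 1 of them, C50A, with Snord50a given first and positions counted from 1 at the 5′ end. In the annotated transcript matched to each host, Snord50a, Snord50b, Snord87 and Snord47 lie in introns. Snora24 lies inside the single exon of the 776-base Snhg8 model, and 6 snoRNA entries of Gas5 lie inside exons of its 2556-base model, so for these a host read and a snoRNA read can share bases. The Snora24 row was at 0 reads in all 12 libraries, and Snord47 and Snord87 had 1 read each over all 12.

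Snhg5 lost most of its signal in the first 4 h. It was at 22.4 and 64.6 normalised reads in control at 0 h, at 7.28 and 9.27 at 4 h, and at 8.65 and 6.32 at 8 h. In KO it was at 48.8 and 40.6 at 0 h, at 12.3 and 6.78 at 4 h, and at 3.82 and 10.1 at 8 h. Every library at 4 or 8 h was below both libraries of the same genotype at 0 h, while the 4 h and 8 h values overlapped in both genotypes, and those of control and KO overlapped at each time. On the authors' scale the 4 h mean was 19.0% of the 0 h mean in control and 21.4% in KO. The 8 h mean was 17.2% and 15.5%. After TMM scaling these were 31.3% and 35.8% at 4 h, and 52.1% and 34.5% at 8 h. Every later library was still below both 0 h libraries of its genotype, and the genotypes still overlapped at each time. In control both 8 h libraries then lay above both 4 h ones, while in KO these times still overlapped. That control difference was not called (0.64, limma adjusted p = 0.850).

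Between 0 and 4 h Snhg5 fell by 2.09 ± 0.72 (SE) in control and by 2.16 ± 0.72 in KO on the log2(value + 1) scale (limma with Benjamini-Hochberg adjustment, adjusted p = 0.0466 and 0.0357). It was the one host called lower in that interval in control, where 11.8% of all tested genes were called lower, and likewise in KO, where 14.4% were. From 4 to 8 h it differed by -0.13 in control and -0.48 in KO, and 0 of the 5 tested hosts were called in that interval in either genotype. At an unadjusted p under 0.05 none of the 5 passed in that interval either, and edgeR and DESeq2 also called none. The background there was 4.63% of genes called lower in control and 0.0288% in KO. Whether the early change of Snhg5 differs from its late one was not tested. The early call in control is close to the threshold, and it was lost without any 1 of 9 libraries, 3 of them control libraries at 0 or 4 h: without control 0 h replicate 2 it was -1.34 (adjusted p = 0.426), without control 4 h replicate 1 -1.93 (0.267) and without control 4 h replicate 2 -2.24 (0.118). For the other 6 the difference stayed at -2.09, with an adjusted p from 0.0504 to 0.0650. The early call in KO was lost without any 1 of the 4 KO libraries at 0 and 4 h, with differences from -1.77 to -2.55 and an adjusted p between 0.111 and 0.229. With edgeR on the recovered reads, which takes the depth of each library into account, the early differences were -2.31 and -2.18 (adjusted p = 0.0352 and 0.0344). After TMM scaling, which sets the typical gene to no change between libraries, they were -1.55 (95% interval -2.87 to -0.22, adjusted p = 0.118) in control and -1.47 (-2.79 to -0.15, 0.167) in KO, and neither was called.

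A straight line through 0, 4 and 8 h gives 1 rate per genotype. Snhg5 fell by 0.28 ± 0.09 (SE) per hour on the log2 scale in control and by 0.33 ± 0.09 in KO (limma, adjusted p = 0.0144 and 0.00768). The median tested gene changed by -0.17 per hour in control and -0.14 in KO, and 21.1% of the tested genes in control and 8.85% in KO had a lower slope than Snhg5. The control call was lost without control 0 h replicate 2 (-0.16, adjusted p = 0.236), and the KO call was lost without KO 0 h replicate 1 (-0.29, 0.0838) or replicate 2 (-0.31, 0.0557). The reads behind these values are few, from 6 to 29 in a library and 184 in all.

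**Figure D1:**
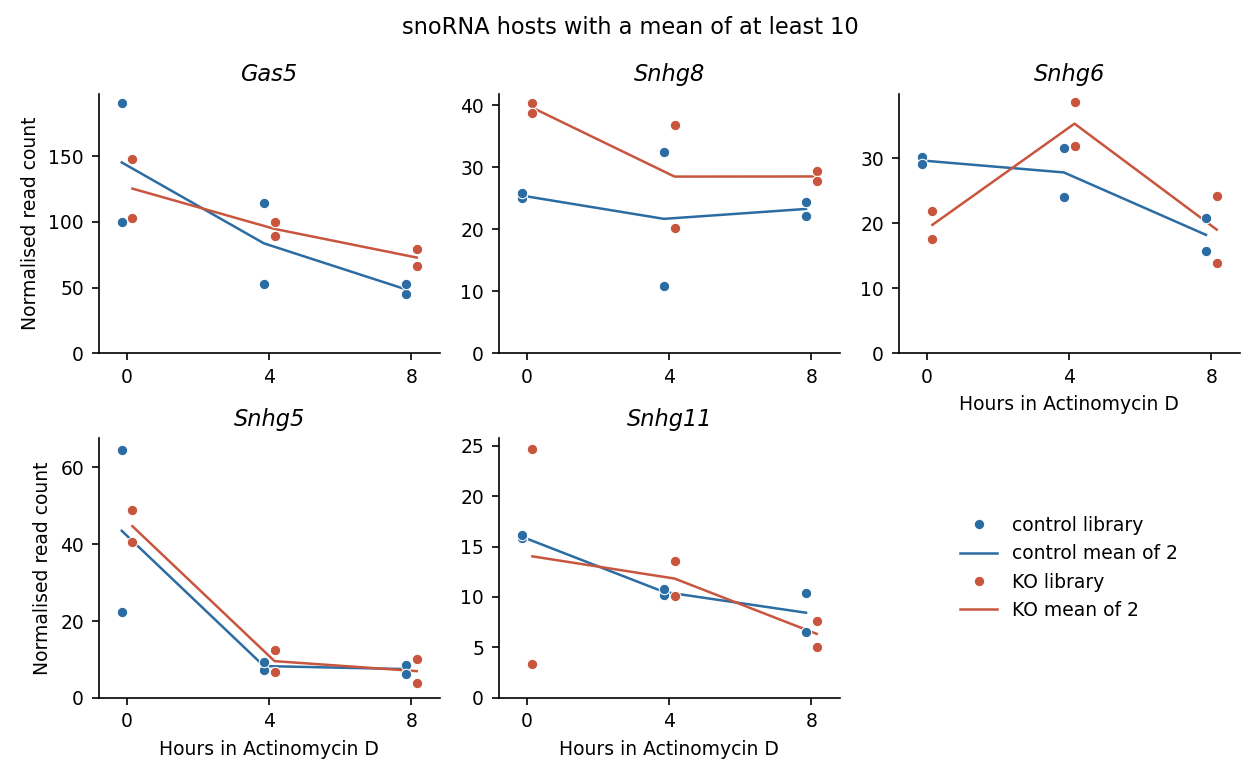
Normalised read counts (y axis, linear and starting at 0, with its own range in each panel) of the 5 tested hosts against hours in Actinomycin D (x axis). Points are single libraries, blue for control and red for KO, drawn slightly apart, and lines join the means of 2 libraries. Snhg5 drops to between 6.78 and 12.3 at 4 h in all 4 libraries, while Snhg8 stays between 10.9 and 40.4 throughout.

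Gas5, named for its accumulation in growth-arrested cells and the host with the highest value here, was lower at 8 h than at 0 h in both genotypes on the authors' scale; its rate was not tested against that of Snhg5. It was at 100.1 and 190.6 in control at 0 h, at 53.1 and 114 at 4 h, and at 44.9 and 52.4 at 8 h. The KO values were 103 and 148 at 0 h, 89.7 and 99.8 at 4 h, and 79.0 and 66.7 at 8 h. The 8 h libraries were below both 0 h libraries in each genotype. This holds for at least 38.1% of all tested genes in control and 57.8% in KO, those with all 4 later libraries below. At 8 h both KO libraries were above both control libraries, as for 55.3% of all tested genes. After TMM scaling the genotypes overlapped at 8 h, at 108.8 and 100.7 in control and 112 and 87.0 in KO. These values also overlapped those at 0 h, 108.7 and 115.9 in control and 60.5 and 91.1 in KO. The mean left at 8 h was 33.5% of that at 0 h in control and 58.1% in KO.

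The slope of Gas5 was -0.19 ± 0.05 (SE) per hour in control (limma, adjusted p = 0.00445) and -0.09 ± 0.05 in KO (adjusted p = 0.140). Gas5 and Snhg5 were the 2 of 5 hosts called lower by slope in control, against 52.1% of all tested genes. In KO it was 1 of 5, Snhg5, against 37.3% of all tested genes. The slope of Gas5 lay close to that of the typical gene in control, with 43.4% of tested genes lower, and above it in KO, with 69.2% lower. Its control call was lost without control 0 h replicate 2, where the slope was -0.13 (adjusted p = 0.0822). The early difference of Gas5, 4 h minus 0 h, was -0.82 ± 0.43 in control and -0.38 ± 0.43 in KO, and neither passed the test (adjusted p = 0.230 and 0.602). Without control 0 h replicate 1 the control difference was -1.36 (adjusted p = 0.0246).

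No loss of Snhg8 was called. It was at 25.0 and 25.8 in control at 0 h, at 10.9 and 32.4 at 4 h, and at 22.2 and 24.4 at 8 h. The KO libraries had 40.4 and 38.8 at 0 h, 20.2 and 36.8 at 4 h, and 29.3 and 27.7 at 8 h. The KO libraries were above the control libraries at 0 h and at 8 h, and overlapped them at 4 h, where replicates lay far apart in both genotypes. On the authors' scale both KO libraries were above both control libraries for 37.3% of all tested genes at 0 h, for 37% at 4 h and for 55.3% at 8 h. After TMM scaling Snhg8 was at 27.2 and 15.7 in control and 23.8 and 23.9 in KO at 0 h, which overlap. At 8 h it was then at 53.8 and 46.9 in control and 41.6 and 36.1 in KO, the opposite order. The 8 h mean was 91.5% of the 0 h mean in control and 72.0% in KO, and the slopes were -0.02 and -0.06 per hour (limma, adjusted p = 0.852 and 0.489). Of all tested genes 90.8% in control and 83.2% in KO had a lower slope.

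Snhg6 did not fall in a single direction. It was at 30.3 and 29.1 in control at 0 h, at 24.0 and 31.7 at 4 h, and at 15.7 and 20.8 at 8 h. In KO it was at 21.9 and 17.6 at 0 h, at 32.0 and 38.7 at 4 h, and at 24.2 and 13.9 at 8 h. Both KO libraries were below both control libraries at 0 h, as for 3.27% of all tested genes, and above both at 4 h, as for 37%. This order was the same after TMM scaling, where 21.8% of genes were below at 0 h and 24.5% above at 4 h. The KO mean at 4 h was 179% of that at 0 h, and this difference did not pass the test. The slopes were -0.09 per hour in control and -0.01 in KO (limma, adjusted p = 0.302 and 0.896). The matched Snhg6 exons share 61 bases with Mcmdc2, a gene on the opposite strand, and no source used here says whether reads were counted by strand.

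Snhg11, the least abundant of the tested hosts, is annotated as protein coding and has 5 exons. It was at 15.8 and 16.2 in control at 0 h, at 10.2 and 10.8 at 4 h, and at 6.49 and 10.4 at 8 h. The KO libraries had 3.37 and 24.7 at 0 h, 10.1 and 13.6 at 4 h, and 7.65 and 5.04 at 8 h. All later control libraries were below both at 0 h, whereas in KO none was below the lower 0 h library, which held 2 reads. The slopes were -0.11 and -0.07 per hour (limma, adjusted p = 0.367 and 0.579).

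All 4 later libraries lay below both 0 h libraries for 2 of the 5 tested hosts in control (Snhg5 and Snhg11), against 38.1% of tested genes. In KO this held for 3 of 5 (Snhg5, Gas5 and Snhg8), against 57.8% of tested genes. It held in both genotypes for Snhg5, as it did for 30.3% of tested genes.

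**Figure D2:**
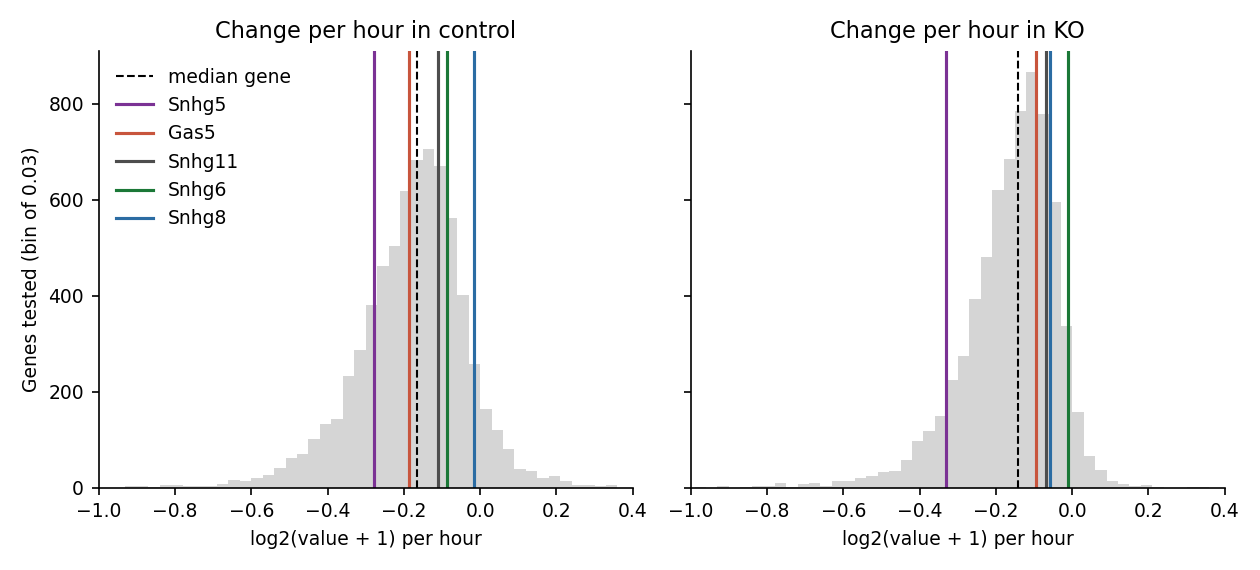
Histograms of the change per hour on the log2(value + 1) scale (x axis) over the 6952 tested genes, with the number of genes per bin on the y axis, in control (left) and KO (right). Genes beyond the plotted range are not drawn. Solid lines mark the 5 hosts and the dashed line the median gene, which is at -0.17 in control and -0.14 in KO. Snhg5 lies left of the median in both panels and Snhg11, Snhg6 and Snhg8 lie right of it.

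The rates depend on the scale, since the authors' factors let the median gene fall with time. TMM scaling moved the median slope from -0.17 to 0.00 in control and from -0.14 to 0.00 in KO. The number of genes called higher and lower went from 31 and 3620 to 572 and 613 in control, and from 2 and 2596 to 193 and 263 in KO. On that scale 0 of the 5 hosts were called by slope in either genotype. The slopes of Snhg5 were then -0.11 (95% interval -0.30 to 0.07, adjusted p = 0.388) in control and -0.19 (-0.37 to -0.01, 0.180) in KO, so a loss of Snhg5 beyond that of the typical gene did not pass the test. Gas5 was at -0.01 in control and 0.05 in KO, with intervals from -0.09 to 0.07 and from -0.03 to 0.13. Snhg8 was at 0.15 in control (0.03 to 0.28, adjusted p = 0.0839) and 0.08 in KO, and Snhg6 at 0.08 and 0.13. The order of the hosts by slope, with Snhg5 the lowest and Gas5 next, was the same on both scales in both genotypes. No half-life was computed, since no source used here says what the authors' factors were based on.

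**Figure D3:**
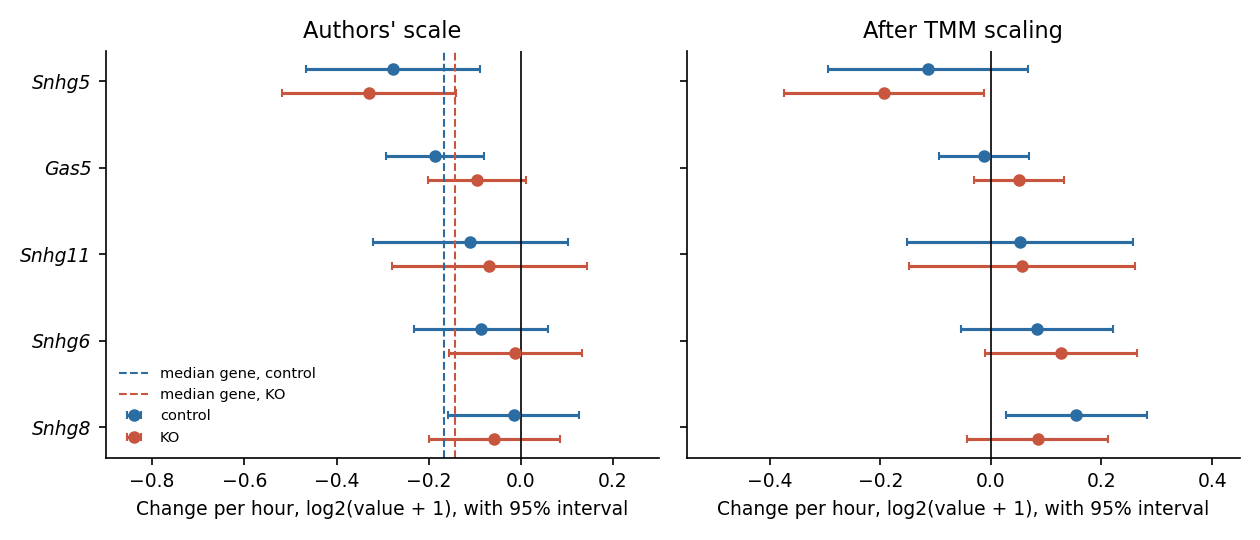
Change per hour on the log2(value + 1) scale (x axis) for each tested host (y axis), with 95% intervals from limma, in control (blue) and KO (red). The left panel has the authors' scale, with the median gene of each genotype as a dashed line, and the right panel has TMM scaling, where 0 stands for the typical gene. On the left the interval lies below 0 for Snhg5 in both genotypes and for Gas5 in control, and on the right it lies below 0 for Snhg5 in KO and above 0 for Snhg8 in control.

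Loss of Zcchc8 was compared next, the question being whether host transcripts are higher or last longer without this NEXT subunit. None of the 5 tested hosts was called different between KO and control at 0 h, 4 h or 8 h (limma, 0 of 5 called at each time, and 0 of 5 at an unadjusted p under 0.05). Of all tested genes 4.3% were called at 0 h, 0.748% at 4 h and 4.89% at 8 h. The differences, KO minus control on the log2 scale, ran from -0.68 for Snhg11 to 0.62 for Snhg8 at 0 h, from 0.14 for Snhg5 to 0.50 for Snhg8 at 4 h, and from -0.35 for Snhg11 to 0.57 for Gas5 at 8 h. The median gene was itself 0.44, 0.29 and 0.63 higher in KO at these times. The 95% intervals were wide, for Gas5 at 8 h from -0.30 to 1.44 and for Snhg5 at 0 h from -1.23 to 1.66. They do not show that the levels are alike.

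The rates of loss were compared through the difference of slopes. It was 0.09 ± 0.07 (SE) per hour for Gas5, with a 95% interval from -0.06 to 0.24, and -0.05 ± 0.13 for Snhg5, with an interval from -0.32 to 0.22 (limma, adjusted p = 0.962 and 0.984). None of the 5 hosts was called, and 0% of all tested genes were. At an unadjusted p under 0.05 none of the 5 hosts and 350 of 6952 genes passed, and edgeR called 0 genes and DESeq2 4. These intervals do not show that the rates are alike.

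The 5 hosts below the threshold had 53 to 115 reads each over the 12 libraries and were not tested. Snhg12 (mean 9.22), host of Snora16a, Snora44, Snora61 and Snord99, lay just under it, as Snhg11 (mean 11.2) lay just over it. It was at 15.8 and 6.46 in control at 0 h, at 2.18 and 4.63 at 4 h and at 2.16 and 10.8 at 8 h. In KO it was at 21.9 and 12.3, then 12.3 and 10.7, then 2.55 and 8.82. The genotypes overlapped at 0 h and 8 h, and at 4 h both KO libraries were higher, as for 37% of all tested genes. After TMM scaling both were still higher at 4 h, as for 24.5% of genes.

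Snhg1 (mean 7.81) carries 8 snoRNAs in its introns, Snord22 among them. It was at 7.90 and 3.23 in control at 0 h, at 4.37 and 13.9 at 4 h and at 2.16 and 2.71 at 8 h. The KO libraries had 13.5 and 15.9, then 13.5 and 3.87, then 10.2 and 2.52. Both KO libraries at 0 h were above both control libraries, as for 37.3% of all tested genes, with overlap at 4 and 8 h. After TMM scaling the 0 h values overlapped too, at 8.58 and 1.96 in control and 7.94 and 9.76 in KO.

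Snhg7 (mean 5.81), host of Snora17 and Snora43, was at 10.5 and 16.2 in control at 0 h, at 0 and 6.18 at 4 h and at 1.08 and 0 at 8 h. The KO libraries had 8.42 and 10.6, then 3.36 and 3.87, then 4.46 and 5.04. All later libraries were below both 0 h libraries in each genotype, as for 30.3% of all tested genes. After TMM scaling this no longer held in KO, at 4.96 and 6.51 at 0 h and 6.33 and 6.56 at 8 h. At 8 h both KO libraries were above both control ones, as for 55.3% of all tested genes. The same order held after TMM scaling, as for 20.8% of genes. In reads, control went from 13 over both libraries at 0 h to 2 at 8 h, and KO from 11 to 11. The 0 of control 4 h replicate 1 allows up to 2.18 normalised reads and that of control 8 h replicate 2 up to 1.36, taking 3 reads as the limit and counting error only. Its slope difference was not called even when no filter on low values was used (0.30 ± 0.18, limma adjusted p = 0.794).

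Snhg3 (mean 5.26) carries Snora73a and Snora73b. It was at 2.63 and 12.9 in control at 0 h, at 3.64 and 0.772 at 4 h and at 2.16 and 0.903 at 8 h, and in KO at 6.74 and 15.9, then 5.61 and 8.72, then 0.637 and 2.52. All 8 h libraries were below both 0 h libraries of their genotype, as for at least 38.1% of tested genes in control and 57.8% in KO. After TMM scaling this did not hold in control, at 2.86 and 7.86 at 0 h and 5.24 and 1.74 at 8 h. Both KO libraries were above both control ones at 4 h, as for 37% of all tested genes. They were also above after TMM scaling, as for 24.5% of genes. Its matched exons share 347 of 437 bases with Gm17300 on the opposite strand and 28 with Rcc1 on the same strand, so its value is uncertain where reads from these genes could be shared.

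Snhg9 (mean 6.38), host of Snora78, had widely spread replicates. It was at 10.5 and 0 in control at 0 h, at 0 and 3.86 at 4 h and at 0.540 and 3.61 at 8 h, and in KO at 16.8 and 0, then 15.7 and 3.87, then 16.6 and 5.04. In KO replicate 1 was the higher library at each time. At 4 h and 8 h both KO libraries were above both control ones, as for 37% and 55.3% of all tested genes. After TMM scaling the genotypes overlapped at both times. Snhg9 was then at 0 and 4.09 in control and 16.6 and 3.54 in KO at 4 h. At 8 h it was at 1.31 and 6.95 in control and 23.5 and 6.56 in KO. The 0 of control 0 h replicate 2 allows up to 9.69 and that of KO 0 h replicate 2 up to 5.29 normalised reads. Of the 183 bases in its matched exons 14 overlap Rps2 on the opposite strand, an abundant ribosomal protein gene with a mean of 2881.

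**Figure D4:**
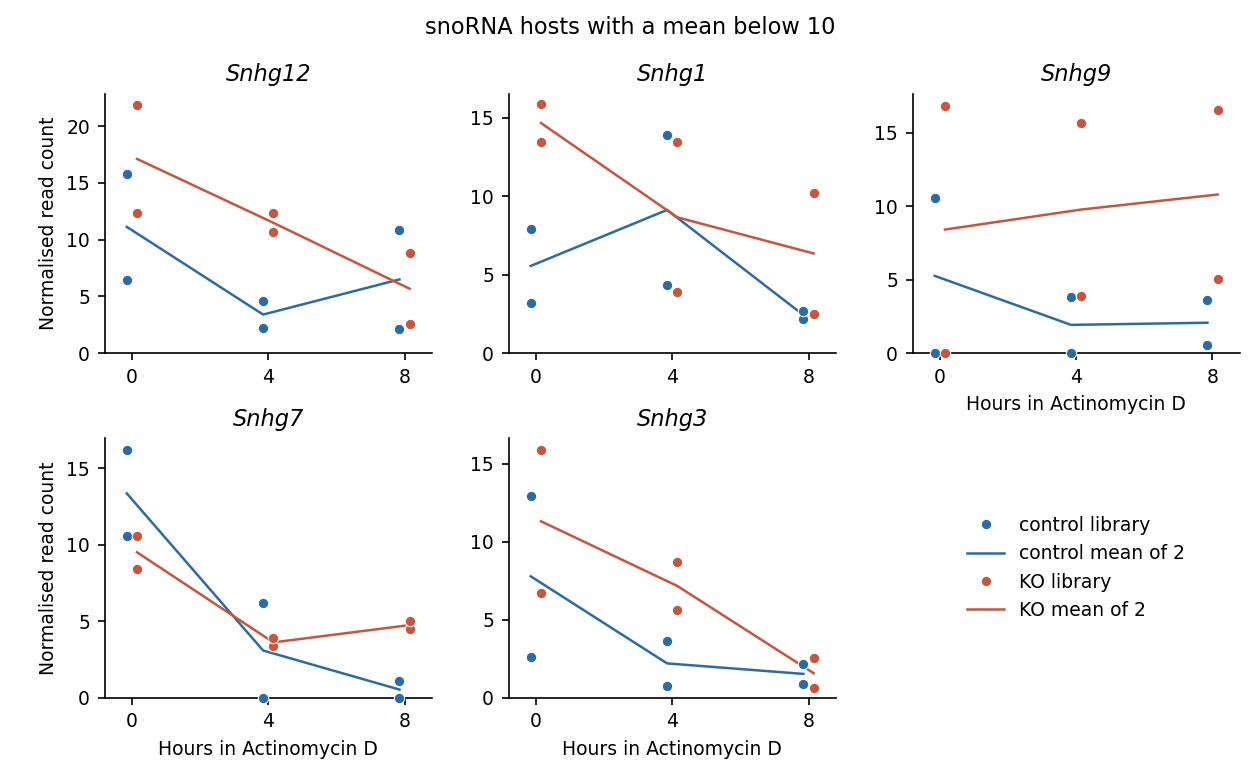
Normalised read counts (y axis, linear and starting at 0, with its own range in each panel) of the 5 hosts with a mean below 10 against hours in Actinomycin D (x axis). Points are single libraries, blue for control and red for KO, drawn slightly apart, and lines join the means of 2 libraries. No host exceeds 21.9, and replicates of Snhg9 lie apart at 0 h in both genotypes.

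Levels of different hosts can be set side by side only per length, here the length of the annotated transcript matched to each row, found for 9 of the 10. At 0 h in control Snhg6 was at 75.7 and 72.7 normalised reads per kb, Gas5 at 39.2 and 74.6, Snhg5 at 22.3 and 64.3, and Snhg8 at 32.2 and 33.3. The values of Gas5 overlapped with those of Snhg6 and of Snhg5 and lay above those of Snhg8. The Gas5 length of 2556 bases is that of a 4-exon model with 6 snoRNA entries inside exons, and the Snhg8 model of 776 bases holds 1. Over a shorter spliced form the values per kb would be higher, so the order of the hosts depends on the model matched. Snhg11, with 5864 bases, was at 2.70 and 2.75 and below every other host except Snhg9, which was at 57.6 and 0. In KO Snhg6 was at 54.7 and 44.1, Snhg8 at 52.1 and 50.0, Gas5 at 40.2 and 57.9 and Snhg5 at 48.6 and 40.4, so each of these 4 overlapped with the others except that Snhg5 lay below Snhg8.

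The start of the hosts was examined for pyrimidine runs, the letters C and T in any order on the transcribed strand, in a window of 20 bases before to 20 bases after the RefSeq start on GRCm38.p6. The 4 tested hosts with a window are shown, among them those with the lowest (Snhg5) and the highest (Snhg8) slope in control; capitals mark the longest run.
Snhg5 (chr9:88522878-88522917, minus strand): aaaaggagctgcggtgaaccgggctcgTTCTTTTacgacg
Gas5 (chr1:161035146-161035185, plus strand): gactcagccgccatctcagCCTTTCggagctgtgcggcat
Snhg8 (chr3:123508317-123508356, minus strand): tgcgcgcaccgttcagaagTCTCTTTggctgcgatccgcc
Snhg11 (chr2:158375693-158375732, plus strand): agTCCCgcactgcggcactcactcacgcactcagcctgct
Gas5 and Snhg8 have a run of 6 and 7 bases that begins 1 base before the listed start, and Gas5 has a further listed start whose longest run is 3 bases. In Snhg5 a run of 7 bases begins at base 8 of the transcript, and in Snhg11 the longest run is 4 bases. A run of at least 6 was found in 7 of the 10 windows of the 9 hosts that have one, and in 37.5% of all 32851 windows of the same length. Such a match is a description of the letters. Snhg5 and Snhg8, the hosts with the lowest and the highest slope in control, both have a run of 7.

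Among the snoRNAs of these hosts whose rows were looked up, Snord22 of Snhg1 (mean 11.0) and Snora78 of Snhg9 (mean 14.8) reached a mean of 10. Snord50a, Snord50b, Snora73a and Snora73b had no row. The other snoRNAs of Gas5 and Snhg1, such as Snord78 and Snord80, were not looked up one by one. Any of them with a row under a snoRNA name counts among the 114 rows below. Whether such reads come from the released snoRNA or from the host precursor was not tested. Snord22 ranged from 2.52 to 26.4 and Snora78 from 2.52 to 58.1 over the 12 libraries. Of all 114 rows named as snoRNA or scaRNA 8 were tested, with 1 called lower by slope in control, Snord49b (-0.35 ± 0.13 SE, limma adjusted p = 0.0279), and 2 in KO, against 52.1% and 37.3% of all tested genes. After TMM scaling 2 were higher and 0 lower in control and 1 higher and 0 lower in KO.

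The other host genes and the pathways around them were described by counts. Of 8 further noncoding hosts (Snhg4, Snhg10 and others) 3 had a row and 0 reached a mean of 10. Of 42 protein-coding hosts, mostly genes of ribosomal proteins and translation factors, 34 were tested, and 12 were lower by slope in control and 5 in KO, against 52.1% and 37.3% of all tested genes. Their median slope was -0.10 and -0.07 per hour, against -0.17 and -0.14 for all tested genes. After TMM scaling 14 of them were called higher and 2 lower in control, and 5 and 2 in KO, with medians of 0.08 and 0.08. Of all tested genes 8.23% were then higher and 8.82% lower in control, and 2.78% and 3.78% in KO. Ppan, a ribosome biogenesis factor, had the smallest p among them, with -0.45 ± 0.06 (SE) in control and -0.51 ± 0.06 in KO (limma, adjusted p = 7.24e-07 and 1.65e-07). Nop56 and Nop58, core proteins of C/D box particles that are themselves hosts, had slopes of -0.30 and -0.27 in control (adjusted p = 6.76e-06 and 5.98e-05).

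Of 18 proteins and assembly factors of snoRNA particles 17 were tested, with 10 lower in control and 9 in KO and median slopes of -0.16 and -0.12. Of 16 factors of nonsense-mediated decay and the exon junction complex 13 were tested, with 10 and 7 lower and medians of -0.17 and -0.14, Upf3a having the smallest p (-0.29 in control, limma adjusted p = 8.36e-05). Of 16 genes of NEXT and the nuclear exosome 11 were tested, with 7 and 6 lower and medians of -0.29 and -0.23, led by Exosc9 (-0.48 in control, limma adjusted p = 2.25e-08). Zcchc8, the gene knocked out, is among them. It was called lower in control (-0.34, limma adjusted p = 0.00202) and not in KO (-0.11, 0.307), where it was already lower at 0 h. These counts stand against 52.1% of all tested genes lower in control and 37.3% in KO. On the authors' scale none of these genes was called higher by slope in either genotype. After TMM scaling 0 were higher and 3 lower in control among the snoRNA particle genes, 0 and 0 among the decay factors and 0 and 2 among the NEXT and exosome genes, and in KO 1 decay factor was higher and 1 NEXT or exosome gene lower. These compare with 8.23% of all tested genes higher and 8.82% lower in control, and 2.78% and 3.78% in KO.

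Of 20 mRNAs known to be short-lived, such as Myc, Jun and Fos, 15 were tested, and 12 were lower by slope in control and 12 in KO, or 6 and 6 after TMM scaling. Of all tested genes 52.1% and 37.3% were lower, or 8.82% and 3.78% after TMM scaling. Their median difference between 4 h and 0 h was -2.79 in control and -3.03 in KO, and that between 8 h and 4 h was -0.21 and -0.38. The early values of Snhg5, -2.09 and -2.16, were smaller in size than these medians and larger than those of all tested genes, which were -0.49 and -0.68.

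The genes whose profile over the 12 libraries was most like that of Gas5 were Fabp3 (Pearson r 0.866 between TMM-scaled log2 values), Dnajc8 (0.848), Fxr2 (0.796), Ddx18 (0.777) and Psmc5 (0.768), out of 1517 genes with a mean of at least 100. The 12 points share genotype, time and library, and no test was made.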

How the data were processed

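Total RNA of 12 Actinomycin D libraries (6 groups of 2) was analysed. Per the submitters' processing notes, reads were handled with TopHat2 2.1.1, HTSeq 0.6.0 and DESeq2 on mm9 (no version of DESeq2 listed). No source used here gives the role of each tool or what the scaling factors were based on. The values deposited by the authors are read counts divided by 1 factor per library, here called normalised read counts, a signal never below 0. Whole reads were recovered from their steps for 100% of values, which gives 465324 to 1364520 reads per library. Repeated rows (978 of 33896) were dropped and transcripts of a symbol summed.

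Genes with a mean of at least 10 were tested with limma 3.58.1 (R 4.3.3, trend and robust) on log2(value + 1), with 6 group means or a line over time in each genotype, Benjamini-Hochberg adjustment over all 6952 genes and a threshold of 0.05. Adding 1 before the logarithm shrinks the differences of genes with low values. Alternatives were TMM scaling, a pseudocount of 5, no filter, the most abundant transcript, edgeR 4.0.16 quasi-likelihood with the authors' factors, DESeq2 1.42.0 with its own factors (both on recovered reads), a replicate block and leaving out each library. In simulated libraries of these depths limma made more false calls for KO minus control at 0 h than its threshold allows, so calls near 0.05 are taken as weak. The simulation gave every gene the same spread (dispersion) and most genes a constant mean over time, unlike the data. It therefore does not give the error rate of the time differences. The members and lists were chosen with earlier results of these data known. Named genes are the members, Zcchc8, up to 3 genes per list with the smallest p for the control slope, and the 5 genes most like Gas5. RefSeq and GENCODE sequences are on GRCm38, and no coordinates were converted.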

Additional observations from a re-analysis of the deposited data

How the results depend on the processing

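The tested hosts other than Gas5 had 144 to 367 reads in all, and each group had 2 libraries. The calls rest on the authors' scaling. The number of hosts called was 2 for the control slope, 1 for the KO slope and 1 for the early difference in each genotype, and all 4 went to 0 with TMM and with DESeq2, by which 0 of 5 remained called. The early difference of Snhg5 was then -1.55 with TMM and -1.69 with DESeq2 in control and -1.47 with both in KO. With no filter the early counts were 0 in both genotypes, at the same differences, and 3 hosts were called by slope in control, the added one being Snhg7 (-0.41, adjusted p = 0.0194). A pseudocount of 5, the most abundant transcript and edgeR left the 4 counts within 1.5 times. Leaving out 1 library gave 0 to 2 for the control slope, 0 to 1 for the KO slope, 0 to 2 for the early difference in control and 0 to 1 in KO. The 6 other counts were 0 under every alternative.

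Of 50 differences and slopes (5 hosts in 10 comparisons) 23 changed sign with TMM, and none of the 23 was called on either scale. Those of Snhg6, Snhg8 and Snhg11 include KO minus control at 8 h for Snhg8 (0.28 to -0.36) and Snhg6 (0.02 to -0.62), at 4 h for Snhg11 (0.14 to -0.13), and the early difference of Snhg8 in control (-0.40 to 0.14) and KO (-0.52 to 0.16). The late difference of Gas5 went from -0.67 to 0.15 in control and from -0.38 to 0.09 in KO. The slopes after TMM and DESeq2 were 0.083 and 0.070 for Snhg6, 0.15 and 0.15 for Snhg8 and 0.052 and 0.047 for Snhg11 in control. In KO they were 0.051 and 0.047 for Gas5, 0.13 and 0.13 for Snhg6, 0.085 and 0.086 for Snhg8 and 0.056 and 0.0065 for Snhg11. Without KO 8 h replicate 2 the KO slope of Snhg6 was 0.060, and without KO 0 h replicate 2 that of Snhg11 was 0.049, with ranges over libraries left out of -0.058 to 0.060 and -0.23 to 0.049. KO minus control after TMM and DESeq2 was -0.20 and -0.23 at 0 h and -0.12 and -0.013 at 4 h for Snhg5, and -0.021 and -0.066 at 4 h and -0.083 and -0.058 at 8 h for Gas5. Leaving out 1 library gave ranges for Gas5 of -0.62 to 0.30 at 0 h and -0.27 to 0.82 at 4 h, and for Snhg5 of -0.53 to 0.96 at 0 h, -0.24 to 0.53 at 4 h and -0.80 to 0.40 at 8 h. The slope difference of Snhg5 ranged from -0.17 to 0.0039, the latter without control 8 h replicate 1. The early KO difference of Gas5 was 0.32 and 0.28 after TMM and DESeq2. The late control difference of Snhg5 was 0.64 and 0.71, and over libraries left out -0.33 to 0.066 in control and -1.08 to 0.12 in KO. The cause was not tested.

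No source used here says whether the replicate numbers pair the libraries. Over 15 pairs of groups the correlation of same-numbered deviations ran from -0.06 to 0.12, and 2 exceeded 0.1. TMM scaling had removed shifts of a whole library from these deviations, so low correlations cannot exclude pairing. With the replicate block the counts of hosts were 2, 1, 1 and 1, as without it. Among all genes those lower late in control went from 322 to 1226 with the block. Those higher in KO at 8 h went from 339 to 754, and those lower by slope in control from 3620 to 3825. Over all genes the counts called moved by more than 1.5 times in several alternatives: KO minus control from 299 to between 54 and 1136 at 0 h, from 52 to between 12 and 194 at 4 h and from 340 to between 46 and 1020 at 8 h, control slope from 3620 to between 613 and 4480, KO slope from 2596 to between 263 and 3141, early difference from 817 to between 234 and 2067 in control and from 998 to between 279 and 1570 in KO, and late difference from 322 to between 2 and 1647 in control and from 2 to between 0 and 96 in KO.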
